A study of Drosophila melanogaster with 62 samples.

Results

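The elav-fne-rbp9 triple mutant list of early embryos holds 284 genes of Drosophila melanogaster, each with a segment, in most cases of its 3′ UTR, that was used less than in wild type. Its members are all rows of the authors' deposited table for that comparison, out of 12624 genes with at least 2 segments in their annotation and out of 415 genes in any of their 10 mutant lists of the first experiment. The mutant group is 3 libraries labelled elav-fne-rbp9 mutant, and the control group is 3 libraries labelled wild type. Both are poly(A) RNA from pooled male embryos of 14 to 16 h after egg laying, sequenced as stranded libraries. The alleles behind the mutant label, the promoter or background they carry and the number of crosses or embryos behind a library were not stated. The authors' p-values therefore cover the spread among 3 libraries a group, which can be technical. The series also holds single and double mutants of the same genes, later embryos of 18 to 22 h and 2 wild-type adult head libraries. A second experiment in it holds mutants labelled nFne and elav-nFne, with their own wild type, at both stages.

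elav, fne and Rbp9 are paralogous genes for RNA-binding proteins of neurons, the fly relatives of the vertebrate Hu proteins. ELAV is nuclear and acts at the processing of nascent transcripts. In neurons it lets RNA polymerase pass a proximal poly(A) site, so that the messenger RNA ends at a distal site and carries a longer 3′ UTR. FNE and RBP9 are mostly found in the cytoplasm, and an alternative exon of fne that is used when ELAV is missing makes a nuclear FNE protein. Longer 3′ UTRs hold additional binding sites for microRNAs and RNA-binding proteins, which act on where and how much a transcript is translated. The comparison asks which neuronal 3′ ends are lost when all 3 paralogs are missing.

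In the authors' deposited table the log2 fold of segment use, triple mutant over wild type, ran from -11.87 to -0.76, with a median of -1.54 and quartiles of -2.49 and -1.11. The list is 2.25% of the 12624 genes with at least 2 segments and 5.63% of the 5046 genes with at least 2 3′ UTR segments. Every listed gene had a decrease and an adjusted p of 9.0e-05 or less by the authors' test, which is how the table was made, so the direction is no finding. Of the 284 genes, 224 (78.9%) had a log2 fold of -1 or lower, 98 (34.5%) of -2 or lower, 47 (16.5%) of -3 or lower and 19 of -4 or lower in the authors' deposited table. Its fitted use, on a scale the file headers do not name, had a median of 25.4 in wild type and 13.6 in the triple mutant. The log2 fold is not the log2 ratio of these fitted uses. No value per library, standard error or library depth was used here, since the table gives 1 fitted value per group, and only the mean normalised count, with a median of 169.7 and a range from 20.6 to 19093, shows the depth behind an entry. In bulk embryos, fewer neurons and less of the segment per neuron cannot be told apart.

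**Figure D1:**
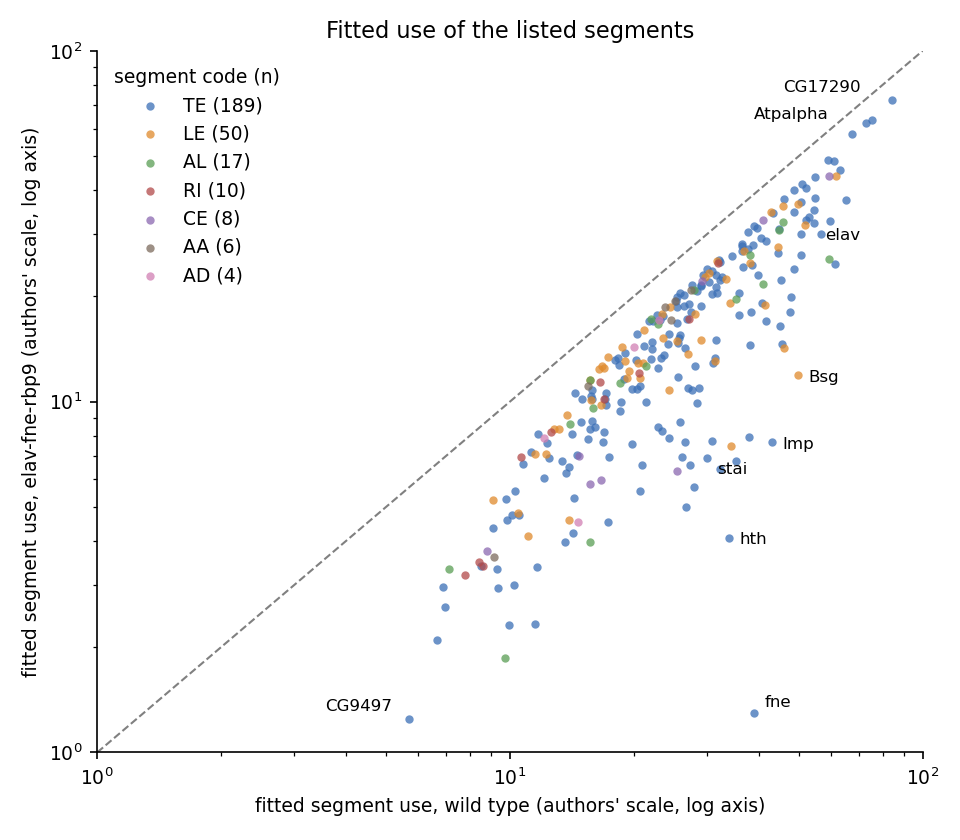
Each point is 1 of the 284 listed entries, with the authors' fitted segment use in wild type on the horizontal axis and in the elav-fne-rbp9 triple mutant on the vertical axis, both logarithmic and on the authors' scale. Colours give the authors' segment codes, and the dashed line marks equal use. All points lie below the line, as the listing requires, with fne the farthest from it (39.1 in wild type and 1.30 in the triple mutant).

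The mutated genes themselves come first. fne (FBgn0086675, X:12945166-12950156 on the + strand in dm6) had the most negative log2 fold in the authors' deposited table, at -11.87 with an adjusted p of 1.9e-150. The fne entry covers 4991 bases, of which 93.5% lie in annotated 3′ UTR, and its fitted use was 39.1 in wild type and 1.30 in the triple mutant. In other early embryos its entries covered other segments. The log2 fold of fne was -19.18 in elav-fne, -8.47 in fne, -4.13 in elav and -3.72 in elav-rbp9 per the authors' deposited tables. fne is itself mutated here, and how much a change in the locus contributes to its fold was not tested. elav (FBgn0260400, X:509880-513105 on the - strand) was listed with 3226 bases of annotated 3′ UTR that do not include the last segment of the gene, and the authors' deposited table gave a fitted use of 54.6 and 32.2 and a log2 fold of -2.13 (adjusted p 7.4e-27). Rbp9 was not in the list. These are relative uses of segments within a gene, so they do not measure the RNA level of the mutated genes, and the labels could not be checked on it.

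RNA-binding proteins and RNA regulators had the highest listed share of the 12 gene lists read here, with 22 of the 50 genes that have at least 2 segments (44.0%, against 2.25% of all such genes). Their median log2 fold in the authors' deposited table was -1.94, beside -1.54 over all entries. The gene lists were written with earlier results of these data known, and elav and fne are in this one. Imp (FBgn0285926), which binds messenger RNAs and acts in the timing of neuroblast fates, had a 1546-base segment at X:10787869-10789414. The authors' deposited table gave that segment a use of 43.1 in wild type and 7.65 in the triple mutant, a log2 fold of -5.57 and an adjusted p of 7.6e-193. cpo, an RNA-binding protein of the nervous system, had a use of 26.1 and 6.94 and a log2 fold of -3.95 per the authors' deposited table. Sxl, the splicing switch of sex determination and dosage compensation, was listed in these male embryos with a use of 14.2 and 4.22 and a log2 fold of -3.71, at a low mean normalised count of 26.5 in the authors' deposited table. The translational repressor pum had 13.6 and 3.98 (log2 fold -3.60), and sm, an hnRNP L relative, had 61.4 and 24.7 (log2 fold -3.60) in the authors' deposited table. Both sequences are annotated 3′ UTR without coding bases, 4126 bases in sm and 1235 in pum. Further members were rin (-3.59), shep (-3.15), Hrb27C (-2.41), the poly(A)-binding Pabp2 (-2.26), bru1 (-1.76), msi (-1.47), brat (-1.24), orb2 (-1.07) and the splicing factor Rbfox1 (-0.88) by log2 fold in the authors' deposited table.

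**Figure D2:**
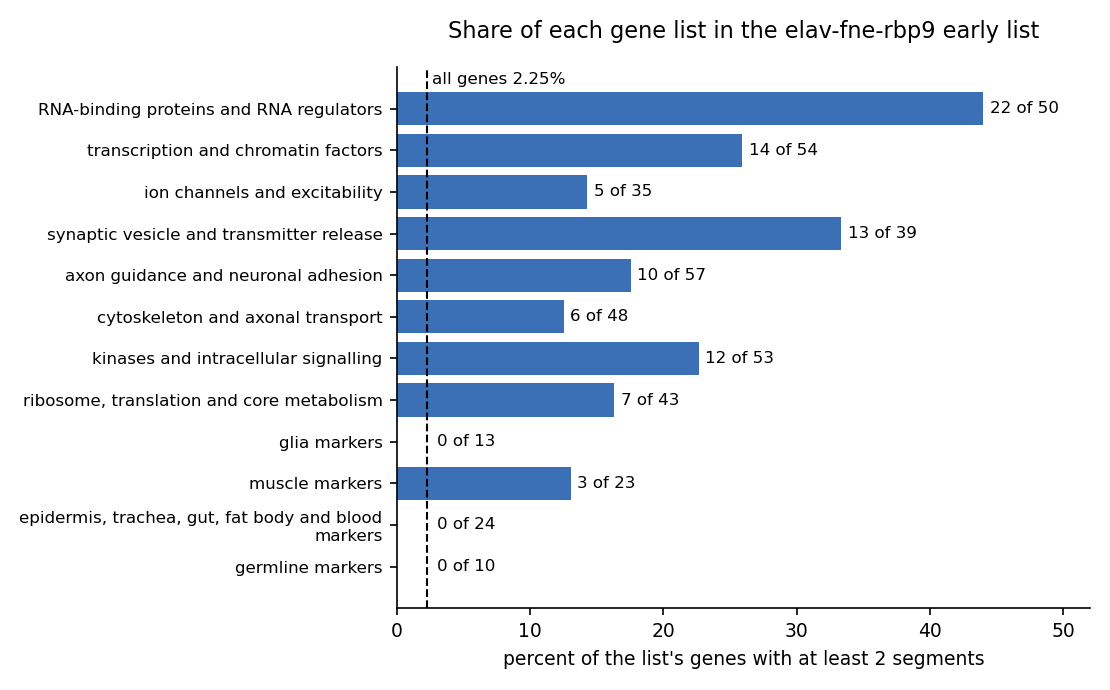
Bars give the percent of the genes with at least 2 segments in each of 12 gene lists that are in the elav-fne-rbp9 early list, with the counts beside them, and the dashed line gives the 2.25% of all genes with at least 2 segments. Every listed gene has at least 2 3′ UTR segments, and of all genes with that many 5.63% are listed. RNA-binding proteins reach 44.0% and synaptic genes 33.3%, and muscle markers, at 13%, lie near cytoskeleton genes at 12.5%. The other 3 marker lists are too short for anything to be read from their counts of 0.

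Transcription and chromatin factors gave 14 listed genes of 54 (25.9%), with a median log2 fold of -2.09 per the authors' deposited table. hth (FBgn0001235), the homeodomain cofactor of the Hox proteins, had a 2286-base segment at 3R:10507561-10509846. Its use was 34.0 in wild type and 4.09 in the triple mutant, with a log2 fold of -6.49, or 89.8-fold lower, and an adjusted p written as 0 in the authors' deposited table. The Hox genes themselves differed widely in fold. abd-A had a 413-base segment (3R:16807214-16807626) with a use of 20.6 and 5.57 and a log2 fold of -3.90, and Abd-B had a use of 13.9 and 6.49 and a log2 fold of -2.25 per the authors' deposited table. Antp, at -1.16, and Ubx, at -0.77, lay much nearer to the threshold of the authors' deposited table. The Antp segment is wholly under an exon of CG46458 on the same strand, so its reads could belong to either gene. The zinc-finger gene jim had 6744 bases with a use of 26.6 and 7.67 (log2 fold -3.80), and ct, a homeodomain gene of sensory neurons, had 11.5 and 2.32 (log2 fold -3.70) in the authors' deposited table. pros, which ends neuroblast self-renewal, had 27.6 and 10.8 and a log2 fold of -2.85 per the authors' deposited table, and the pan-neural factor scrt had 50.8 and 26.2 and -2.50.

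Genes of synaptic vesicles and transmitter release gave 13 listed genes of 39 (33.3%), with a median log2 fold of -1.83 per the authors' deposited table. Syt1 (FBgn0004242), the calcium sensor of vesicle fusion, had 1801 bases within 2L:2772327-2780740 with a use of 27.9 and 5.70. Its log2 fold was -4.67, or 25.5-fold lower, with an adjusted p of 7.6e-126 in the authors' deposited table. Vmat, which loads monoamines into vesicles, kept a use of 16.4 from 45.0 over 4855 bases (log2 fold -3.47) in the authors' deposited table. Of the Vmat segment, 43.9% lies opposite an exon of CG13330. Syt7, a second synaptotagmin, had 13.9 and 4.61 (log2 fold -3.24), and nwk, an adaptor of synaptic growth, had 9.17 and 3.61 (log2 fold -2.71) in the authors' deposited table. csw, also in the list of synaptic genes, is known as a tyrosine phosphatase of receptor signalling and not as a vesicle gene, and had a log2 fold of -2.81 per the authors' deposited table. The core fusion genes stood closer to the threshold, with nSyb at -0.87 (use 59.0 and 48.9) and Rop at -0.86 (use 25.3 and 19.3) in the authors' deposited table. The active zone protein genes Rbp (-0.99) and Rim (-0.92) and the scaffold gene CASK (-0.78) were of similar size in the authors' deposited table, and the CASK segment is wholly under lncRNA:CRG on the same strand.

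Ion channels and excitability genes gave 5 listed genes of 35 (14.3%), with a median log2 fold of -2.36 per the authors' deposited table. slo, a calcium-activated potassium channel, had 3533 bases at 3R:24708063-24711595 with a use of 45.6 and 14.6 and a log2 fold of -4.20, or 18.3-fold lower, in the authors' deposited table. Shal, a voltage-gated potassium channel, had 24.3 and 7.88, and nrv3, a subunit of the sodium pump, had 35.8 and 17.6 in the authors' deposited table. GluClalpha, a glutamate-gated chloride channel, had 44.8 and 30.8 and a log2 fold of -1.42 per the authors' deposited table. Atpalpha, the pump's catalytic subunit, had 72.8 and 62.3 and a log2 fold of -0.97 at a mean normalised count of 3500, one of the highest in the authors' deposited table.

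Axon guidance and adhesion genes gave 10 listed genes of 57 (17.5%), with a median log2 fold of -1.40 per the authors' deposited table. Dscam1, whose many isoforms mark single neurons, had a segment at 2R:7317924-7319553 with a use of 47.7 and 18.0 and a log2 fold of -3.44 per the authors' deposited table. Nrg, the L1-type adhesion molecule of axons, had 38.2 and 14.5 (log2 fold -3.21), and Fas2, the NCAM relative, had 26.6 and 14.3 (log2 fold -1.97) in the authors' deposited table. The entry of the secreted semaphorin Sema2b differs in kind, since it is a 132-base segment of which at least 50% is coding in some transcript, with a use of 8.80 and 3.76 in the authors' deposited table. CadN (-1.51), PlexA (-1.29), Ptp99A (-1.13), Sema1a (-0.89), tutl (-0.86) and Toll-6 (-0.83) completed the group by log2 fold in the authors' deposited table.

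Cytoskeleton and axonal transport genes gave 6 listed genes of 48 (12.5%), the lowest share among the neuronal and general gene lists, with a median log2 fold of -1.50 per the authors' deposited table. The exception in size was stai (FBgn0266521), the stathmin that binds tubulin in axons, with 866 bases at 2L:6123788-6124653. Its use was 29.9 and 6.92, with a log2 fold of -5.63, or 49.6-fold lower, and an adjusted p of 6.8e-18 in the authors' deposited table. The others, among them Map205 (-1.38), which binds microtubules, lay between -1.71 for Lis-1, a regulator of dynein, and -0.77 for the microtubule-associated tau in the authors' deposited table.

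Kinases and intracellular signalling gave 12 listed genes of 53 (22.6%), with a median log2 fold of -1.84 per the authors' deposited table. sgg, the fly GSK-3 kinase, had a use of 40.8 and 19.2 (log2 fold -2.90), and 14-3-3zeta, an adaptor of phosphorylated proteins, had 65.2 and 37.5 (log2 fold -2.63) in the authors' deposited table. The G protein subunit Galphao had 38.3 and 18.0 (log2 fold -2.47), and Cam, the calcium sensor calmodulin, had 48.7 and 23.9 (log2 fold -2.24) with an adjusted p written as 0 in the authors' deposited table. In these 4 genes the fitted use in the mutant was 18.0 or more. rl, the ERK kinase (-2.02), dnc, a cyclic AMP phosphodiesterase (-1.85), and CaMKII (-1.50) were also listed by log2 fold in the authors' deposited table.

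Genes of the ribosome, translation and core metabolism, which are used in all tissues, gave 7 listed genes of 43 (16.3%, against 2.25% of all such genes). Their median log2 fold was -2.04 per the authors' deposited table. Of their 24 genes with at least 2 3′ UTR segments 29.2% were listed, against 5.63% of all such genes. Counted that way, the share was 31.1% for transcription and chromatin factors and 30.8% for kinases and signalling. It was 18.5% for axon guidance and adhesion genes and 16.1% for ion channel genes. AcCoAS, which makes acetyl-CoA from acetate, had a use of 11.6 and 3.38 (log2 fold -3.60), and lactate dehydrogenase Ldh had 19.7 and 7.59 (log2 fold -2.87) in the authors' deposited table. ATPCL, ATP citrate lyase, had 6.95 and 2.60 (log2 fold -2.85) in the authors' deposited table, and 65.1% of its segment lies opposite an exon of CG8320. Whether the counting used the strand is not given in the sources used here. Vha26, a subunit of the vacuolar proton pump, had 12.1 and 6.04, and the elongation factor eEF1alpha1 had 25.4 and 16.8 in the authors' deposited table.

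Of 23 muscle markers with at least 2 segments 3 were listed (13%), against 2.25% of all such genes and a share close to those of the cytoskeleton (12.5%) and ion channel (14.3%) genes. Of muscle markers with at least 2 3′ UTR segments 15.8% were listed, against 5.63% of all such genes. The 3 listed markers were the tropomyosin Tm1 with a use of 23.2 and 13.3 (log2 fold -1.90), Mhc, the muscle myosin heavy chain (-0.83), and the LIM protein gene Mlp60A (-0.81) in the authors' deposited table. Whether muscle cells contribute to those entries was not tested. No gene was listed of 13 glial markers, of 24 markers of epidermis, trachea, gut, fat body and blood, or of 10 germline markers. At the 2.25% of all genes, lists of these sizes would hold less than 1 listed gene each, so nothing is read from their counts of 0.

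Some of the largest decreases belong to genes outside the 12 gene lists. Bsg, the immunoglobulin-family membrane protein basigin, had 7073 bases at 2L:8109459-8116531, with a use of 49.9 and 11.9 and a log2 fold of -4.93 per the authors' deposited table. fz2 (3L:19140975-19142232), a receptor for Wnt proteins, had 32.3 and 6.43 and a log2 fold of -5.01 per the authors' deposited table. CG34401 (-5.15), pxb (-5.07), stx, a regulator of Polycomb (-4.93), px (-4.76), gpp, a histone H3 methyltransferase (-4.34), and the kinase gene nmo (-4.30) were close to these in log2 fold in the authors' deposited table. CG17684 had a 251-base segment with a use of 9.75 and 1.86 and a log2 fold of -4.82 per the authors' deposited table. It was also listed in elav-rbp9 (-4.63) and in the fne-rbp9 libraries, whose stage labels conflict (-3.40), and not in elav-fne or elav embryos, per the authors' deposited tables. CG9497 had the lowest wild-type use of the list, 5.68 against 1.25 in the mutant, for 118 bases with a log2 fold of -4.39 and an adjusted p of 1.9e-06 in the authors' deposited table. At the other end, CG17290 had the highest wild-type use and mean normalised count, with 84.0 and 72.2 at a count of 19093 and a log2 fold of -0.93 per the authors' deposited table. High mean normalised counts were also found for fax (3939, log2 fold -0.80), Bacc (2093, log2 fold -1.33) and 14-3-3epsilon (1864, log2 fold -1.15) in the authors' deposited table. Just inside the threshold lay Ubx, wrd and tou at -0.77 and Gss1 and CG45076 at -0.76. The segments just outside the threshold are not analysed here.

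Most listed segments are those the authors coded TE, a code that the sources used here do not define. These were 189 of 284 entries (66.5%), with a median log2 fold of -1.80, against 53.8% of the 14429 annotated 3′ UTR segments of genes with at least 2 such segments. LE entries numbered 50 (17.6%, annotated share 28.5%) with a median of -1.42, and AL entries numbered 17 (5.99%, annotated share 1.59%) with a median of -1.49 per the authors' deposited table. The rest were 10 RI, 8 CE, 6 AA and 4 AD entries. CE made up 2.82% of the entries and 9.64% of the annotated segments. The 8 CE entries had a median of -1.89, and they include NFAT, a transcription factor, with a use of 16.6 and 5.98 over 2632 bases (log2 fold -3.32) in the authors' deposited table.

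**Figure D3:**
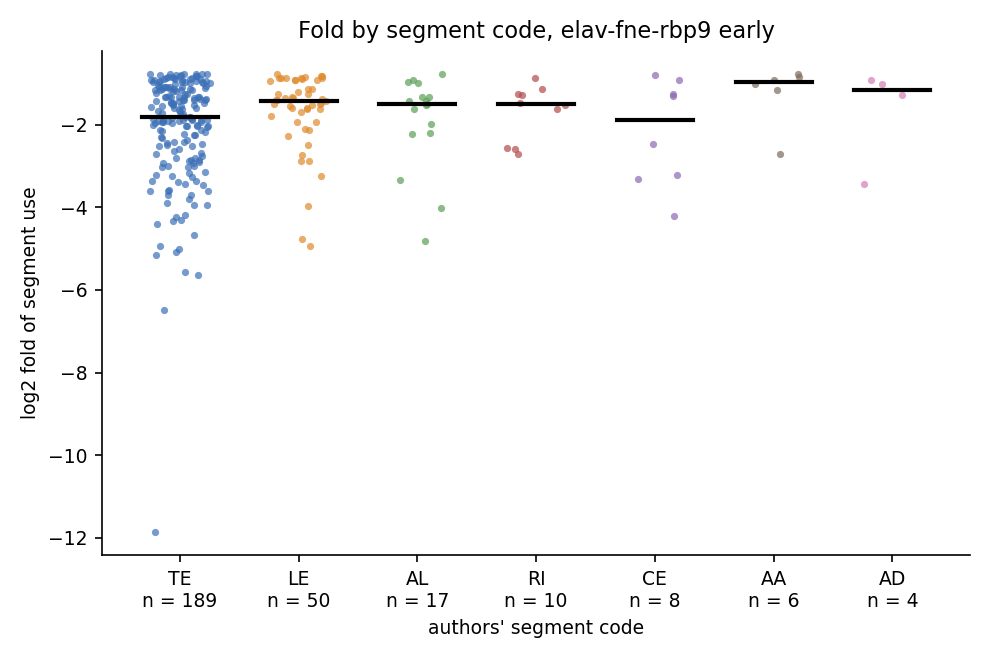
Each point is the authors' log2 fold of segment use for 1 listed entry, grouped by the authors' segment code with its number of entries, and the black bars are medians. TE entries have a median of -1.80 and reach -11.87 at fne, while AA and AD entries have medians of -0.96 and -1.14.

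The listed segments were long and lay towards the 3′ end. Their median length was 1167.5 bases, from 118 to 7489, against 339 for the annotated 3′ UTR segments, and TE entries had a median of 1395 bases against 403 for annotated TE segments. Some entries join several segments, and the 228 entries of 1 segment had a median of 868.5 bases. Of all entries, 156 (54.9%) include the last segment of the gene, and of the 228 entries of 1 segment 118 (51.8%) are the last. Of the annotated 3′ UTR segments, taken singly, 35.0% are the last. At least 90% of the bases lay in annotated 3′ UTR for 251 entries (88.4%). In 211 entries (74.3%) the listed stretch directly follows another 3′ UTR segment, with a median of 1265 bases before it and 1257 bases listed. The stretch with reduced use was the longer one in 99 of these (46.9%). The listed genes are also the more divided ones, with a median of 16 segments and 4 3′ UTR segments against 7 and 2 for all genes with at least 2 3′ UTR segments. A segment needs reads to be listed, and the annotated segments and genes were not matched for reads or length. How much this contributes to the differences in length, position and number of segments was not tested.

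By chromosome arm, the listed share of genes with at least 2 segments was 2.67% on X, 1.82% on 2L, 2.10% on 2R, 2.15% on 3L, 2.29% on 3R and 9.28% on the small chromosome 4. Of genes with at least 2 3′ UTR segments it was 5.61% on X, 4.08% on 2L, 5.88% on 2R, 5.63% on 3L and 6.47% on 3R. Chromosome 4 gave 9 of 97 genes, and 14.5% of its 62 genes with at least 2 3′ UTR segments, against 5.63% of all such genes. They were Syt7 (-3.24), the calcium pump gene PMCA (-1.61), the Wnt effector pan (-1.60), CaMKII (-1.50), zfh2 (-1.41), the semaphorin receptor PlexA (-1.29), CG11360 (-1.08), Thd1 (-0.98) and toy, a Pax6 gene (-0.82), by log2 fold in the authors' deposited table. Except for Syt7 they lay between -1.61 and -0.82, and the median over the 9 genes was -1.41. The entry of zfh2 lies wholly opposite an exon of Tdg.

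The other early mutants were compared with the same 3 wild-type libraries, so their values are set side by side only, and an entry can cover other segments of the gene in another table. The segments were identical in the 4 mutants for hth, Syt1, sgg, Dscam1, Ldh and Imp, whereas for slo and stai they differed between tables. hth had a log2 fold of -6.49 in the triple mutant, -7.55 in elav-fne, -3.19 in elav-rbp9 and -3.42 in elav in the authors' deposited tables. Syt1 had -4.67, -6.77, -3.03 and -2.90 in the same order, and slo had -4.20, -7.12, -0.81 and -1.07 per the authors' deposited tables. sgg had -2.90, -4.12, -1.37 and -1.38, and Dscam1 had -3.44, -3.55, -1.04 and -1.05 per the authors' deposited tables. In these 5 genes the triple mutant value was more negative than those of elav-rbp9 and elav. In others it was less negative, with identical segments. ct had -3.70, -8.83, -4.31 and -5.79, and Tlk had -2.71, -4.99, -4.26 and -4.10 per the authors' deposited tables. pum had -3.60, -4.54, -3.63 and -4.02, and elav itself had -2.13, -3.08, -2.61 and -2.68 per the authors' deposited tables. These genes were picked to show both orders after their values were seen, so they give no measure of how common either order is. Ldh was at -2.87, -3.84, -2.76 and -2.94 per the authors' deposited tables. stai was at -5.63, -3.90, -2.14 and -3.73, and Imp at -5.57, -5.40, -2.74 and -2.63 per the authors' deposited tables. No test of a difference between these mutants was possible, since the fits are separate and no values per library were used. The strongest genes that were in none of the other deposited tables were CG9497 (-4.39), CG34408 (-3.35), NFAT (-3.32), Syt7 (-3.24), CG31140 (-2.88), nwk (-2.71), CG17734 (-2.71) and CG18081 (-2.67) in the authors' deposited table. A gene that is in no other table may lie just past the threshold there.

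**Figure D4:**
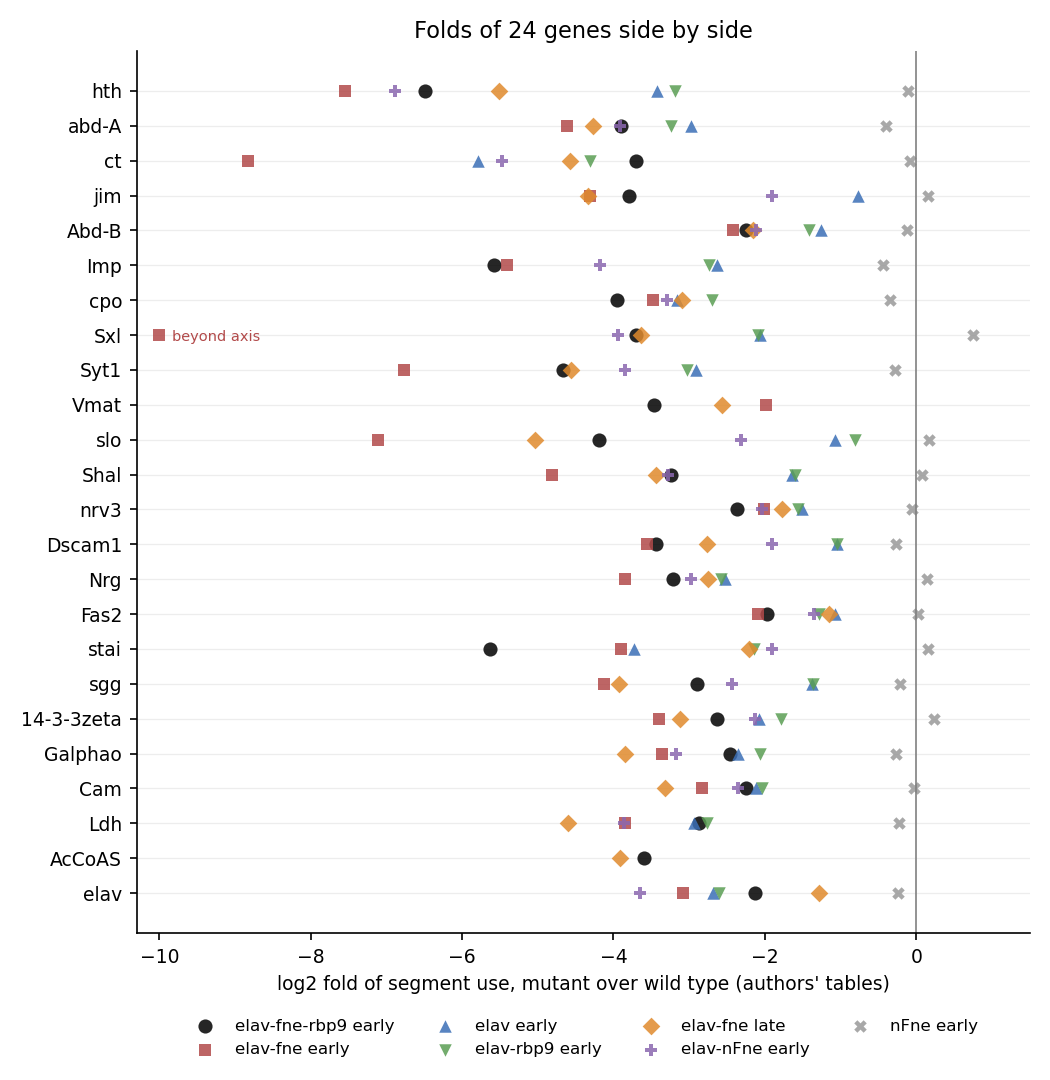
Authors' log2 folds of segment use, mutant over wild type, for 24 listed genes in 7 deposited comparisons, with 1 symbol per comparison and no symbol where the gene was not in that table. The elav-fne early value of Sxl, at -18.27, lies beyond the axis. The early comparisons of the first experiment share their wild-type libraries, and entries can cover different segments of a gene. The early nFne values lie between -0.43 at Imp and 0.75 at Sxl.

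Late elav-fne embryos of 18 to 22 h share no library with the early comparison. Their list holds 172 genes, 1.36% of 12625, and 133 genes were in both lists, which is 46.8% of the triple mutant list and 77.3% of the late list. Over these 133 genes the median log2 fold was -1.98 in the triple mutant and -2.20 in late elav-fne embryos in the authors' deposited tables. The folds of the 2 lists had a Spearman rho of 0.75 over the 133 genes, which are those past the threshold in both and not independent replicates. With identical segments required, 65 genes were shared, or 22.9% and 37.8% of the lists. hth had -6.49 and -5.52, abd-A -3.90 and -4.27, Syt1 -4.67 and -4.56, and AcCoAS -3.60 and -3.92 per the authors' deposited tables. Not all genes lay so close, as px had -4.76 and -2.80, and Imp, at -5.57 in the triple mutant, was not in the late list. These genes are examples and give no measure of how close the folds are.

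The second experiment has its own wild-type libraries and tests 173 genes, all taken from the early elav list, of which 134 are in the triple mutant list. It compares mutants labelled nFne and elav-nFne with wild type, and its log2 fold is the authors' weighted value over a gene's segments, with the smallest adjusted p over them. In early elav-nFne embryos 142 of the 173 genes (82.1%) were lower at an adjusted p under 0.05. Of the 134 triple mutant genes 120 were lower (89.6%), with a median log2 fold of -1.91, and of the other 39 genes 22 were lower (56.4%), with a median of -1.51 per the authors' deposited table. In late elav-nFne embryos 130 of the 134 were lower (97.0%, against 90.2% of all 173), with a median of -1.49. In early nFne embryos 1 of the 134 was lower and 1 higher, against 2.89% of all 173 lower, and the median was -0.14 per the authors' deposited table. The lower gene was fne itself (-0.37), and the higher one was Sxl (0.75). In late nFne embryos 18 were lower (13.4%, against 14.5% of all 173), with a median of -0.36. hth had -6.89 in early elav-nFne and -0.11 in early nFne embryos, Imp -4.17 and -0.43, and slo -2.31 and 0.16 in the authors' deposited tables. Across the 134 genes the triple mutant fold had a Spearman rho of 0.63 with the early elav-nFne fold and 0.01 with the early nFne fold.

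Head expression was not used to make the list, but a segment needs reads in embryos to be listed. The lowest mean normalised count of an entry was 20.6, and the background below was not matched for expression. How much this contributes to the differences below was not tested. In wild-type adult heads the listed genes had a median of 22.1 TPM in replicate 1 and 22.9 TPM in replicate 2, as deposited by the authors. The genes with at least 2 3′ UTR segments had medians of 12.6 and 12.9 TPM. At least 10 TPM was reached by 239 listed genes (84.2%), against 56.9% of genes with at least 2 3′ UTR segments. The highest levels were those of eEF1alpha1 with 953 and 975 TPM and Cam with 616 and 647 TPM, and Syt1 had 189 and 199 TPM. Below 1 TPM lay 10 listed genes (3.52%), against 16.7% of genes with at least 2 3′ UTR segments. Among them were the Hox genes abd-A, with 0.0168 and 0.00719 TPM, and Abd-B, with 0.00334 and 0.00891 TPM, which act in the trunk and not in the head. Gss1, a glutathione synthetase gene, had 0.00463 TPM in replicate 1 and was listed at 0 in replicate 2.

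**Figure D5:**
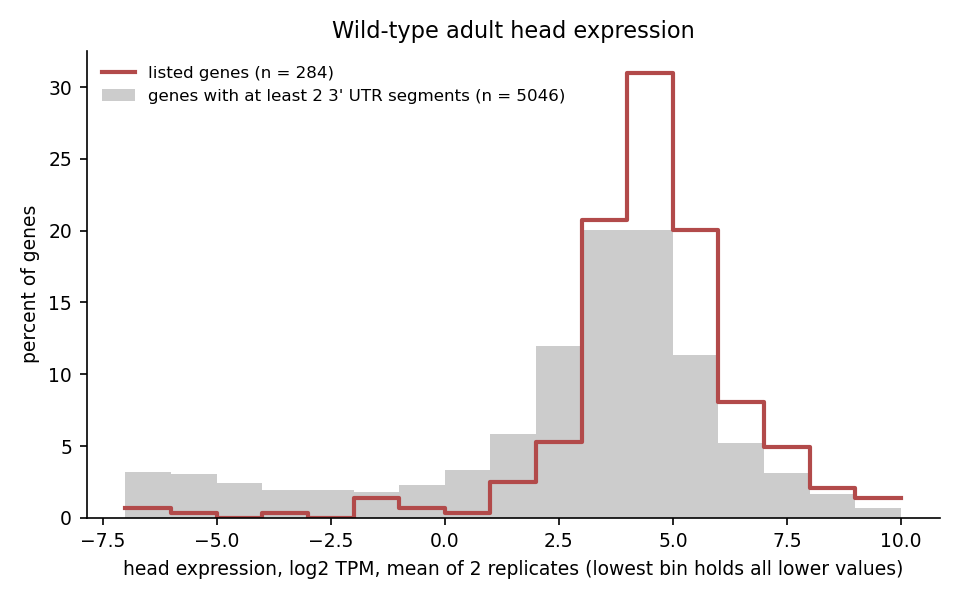
Distribution of head expression as log2 TPM, averaged over 2 wild-type adult head replicates, in percent of genes, with the listed genes as a red line and all genes with at least 2 3′ UTR segments as grey bars. The listed genes lie to the right, with 84.2% at 10 TPM or more against 56.9% of the background, which was not matched for expression in embryos.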

How the data were processed

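The authors deposited a table of their own comparison of 3 elav-fne-rbp9 with 3 wild-type early libraries, without values per library. It holds a log2 fold of segment use, a p-value with its adjusted form, a fitted use score for each group, a dispersion and a mean normalised count, a signal averaged over libraries, per the file headers. For the test, aligner, counting program and library depth, nothing is given in the sources used here. Coordinates are dm6, per the submitters' processing notes, and the segment annotation was written with rtracklayer 1.40.5, per the file headers. The authors deposited head levels as TPM.

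No test was run here. Counts, shares and medians were computed with pandas 2.3.3 and Spearman's rho with scipy 1.17.1, in Python 3.11.15. The code for bases shared between intervals was checked on simulated data, and the counts, shares and rho were not. Bases in 3′ UTR, coding sequence and other genes came from Ensembl release 115 (BDGP6.54). Of 495 symbols in the 12 gene lists 476 matched the annotation. Named genes were the mutated genes, the 15 most negative folds, the 5 smallest adjusted p, the 5 nearest to the threshold, the 5 highest counts, the 4 most negative folds of each gene list, the 8 most negative folds in no other table and the 3 highest and lowest head levels, and further members of the gene lists. One gene that this rule selects is not reported here. The members and gene lists were chosen with earlier results of these data known.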

Additional observations from a re-analysis of the deposited data

How the results depend on the processing

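The list is fixed by the authors' thresholds. Of its 284 genes, 98 had a log2 fold of -2 or lower, 224 of -1 or lower, 241 an adjusted p under 1e-06 and 249 a mean normalised count of at least 50. The share of listed genes on X was 2.67% of genes with at least 2 segments and 5.61% of those with at least 2 3′ UTR segments. The share of the list in late elav-fne embryos was 46.8% by gene and 22.9% with identical segment coordinates. The median log2 fold of -1.54 ranged from -1.59 to -1.48 under 5 alternatives, of which entries at least 90% in annotated 3′ UTR and entries without elav and fne were chosen after seeing the data. Another of them, a fitted use above 0 in both groups, removed no entry and so could not change the median. With the same change of background the share on chromosome 4 went from 9.28% to 14.5%. No paired analysis was possible because the files used here hold no values per library. For the same reason no replicate could be left out. The planned T content, poly(A) signal and T-rich motif results were not run, since no genome sequence was used here. Depth per library is unknown.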

Other observations

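Some listed segments serve as coding sequence as well as 3′ UTR. In 13 entries at least 50% of the bases are coding in some annotated transcript. They were Cdep (-3.33), the zinc-finger gene chn (-3.22), the kinase gene Ack-like (-2.92), the lipase gene inaE (-2.73), Sema2b (-2.47), 5PtaseI (-1.59), CG12163 (-1.49), Sec16, a gene of the endoplasmic reticulum exit sites (-1.47), l(1)G0196 (-1.45), CG11905 (-1.33), su(w[a]) (-1.0), CG45263 (-0.97) and CG17290 (-0.93), by log2 fold in the authors' deposited table. The largest of these stretches, 7489 bases in Cdep, is also the longest of the whole list, with a use of 59.3 in wild type and 25.4 in the triple mutant. The chn segment is wholly coding in some transcript and wholly 3′ UTR in another, with a use of 15.6 and 5.81 in the authors' deposited table. zld, a factor known for opening chromatin in the early embryo, and Tsp97E, a tetraspanin, also had large decreases, at -3.96 and -4.20 by log2 fold per the authors' deposited table. These 2 genes were singled out after their values were seen.

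Some entries share sequence with another gene. Of the 284 entries, 11 lie wholly or in part under an exon of another gene on the same strand and 32 wholly or in part opposite one on the other strand. On the same strand Antp and CASK are wholly covered, Nop60B is covered over 45.5% of its bases, and the others over at most 22.2%. On the opposite strand at least 50% was shared for ATPCL, Tpc2, zfh2, grk and Kank, and 12.1% was shared for elav, with arg.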
